A study of Mus musculus with 86 samples.

Results

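The genes described are 32 cell cycle genes, 15 of S phase and 17 of G2 and mitosis (G2/M), out of 12360 genes measured in single cells of the embryonic mouse kidney. They were chosen by symbol, and all 32 were present. The cells were wild type, from a mixed background, and came from metanephroi (the permanent kidney) of 12.5 days post coitum, Theiler stage 20, from male and female embryos combined. Kidneys were pooled, made into a suspension with trypsin and captured with a Fluidigm C1, a microfluidic chip with 1 chamber per cell, for full-length cDNA synthesis. With 86 cells from a single pool there is 1 sample, so the spread over cells is described and nothing was tested. Expression is given as the authors' RPKM (reads normalised for the length of the gene and for the yield of the library).

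In S phase a cell copies its DNA. The helicase made of Mcm proteins is loaded at origins and started with the help of Cdc45 and the GINS complex, Pcna clamps the polymerases to the DNA, and ribonucleotide reductase and thymidylate synthase supply nucleotides. Towards mitosis the cell makes cyclins A and B for the kinase Cdk1, Aurora and Polo kinases, and the motor and centromere proteins that build and check the spindle, and at the exit from mitosis the anaphase-promoting complex destroys the cyclins. In the kidney at this stage, nephron progenitors marked by Six2, stroma marked by Foxd1 and the branching ureteric bud all divide as the organ grows.

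G2/M transcripts are classically controlled through promoter elements named CHR and CCAAT, and many S phase transcripts through E2F sites. The stretch before the start is printed for 3 G2/M genes that went most closely together over the cells (Top2a, Cdk1 and Ube2c), for the S phase pair that did so (Pcna and Rrm2), and for Mcm5, whose letters hold E2F motifs. They are the 250 bases before the start, 5′ to 3′ on the strand of the gene, from RefSeq on the build GRCm38.p6. Top2a lies on the minus strand at chr11:99024190-99024439, Cdk1 on the minus strand at chr10:69352913-69353162, and Ube2c on the plus strand at chr2:164769679-164769928. Pcna lies on the minus strand at chr2:132253181-132253430, Rrm2 on the plus strand at chr12:24708004-24708253, and Mcm5 on the plus strand at chr8:75109259-75109508. Capitals mark the motifs on either strand.
Top2a: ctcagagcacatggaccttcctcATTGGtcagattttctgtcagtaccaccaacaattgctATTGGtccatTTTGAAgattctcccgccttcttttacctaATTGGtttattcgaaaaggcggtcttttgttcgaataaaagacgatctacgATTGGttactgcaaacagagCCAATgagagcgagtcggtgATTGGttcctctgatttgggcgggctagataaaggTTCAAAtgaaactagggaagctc
Cdk1: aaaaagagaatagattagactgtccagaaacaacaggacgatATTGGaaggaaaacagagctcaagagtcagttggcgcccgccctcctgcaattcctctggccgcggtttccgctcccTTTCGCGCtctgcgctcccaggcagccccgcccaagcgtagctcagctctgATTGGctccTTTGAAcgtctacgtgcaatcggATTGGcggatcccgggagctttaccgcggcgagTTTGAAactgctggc
Ube2c: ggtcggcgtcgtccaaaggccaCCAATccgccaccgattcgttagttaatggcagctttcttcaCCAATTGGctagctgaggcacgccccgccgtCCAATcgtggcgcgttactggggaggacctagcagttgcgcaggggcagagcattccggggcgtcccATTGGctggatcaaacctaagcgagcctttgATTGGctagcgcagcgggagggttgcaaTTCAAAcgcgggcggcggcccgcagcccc
Pcna: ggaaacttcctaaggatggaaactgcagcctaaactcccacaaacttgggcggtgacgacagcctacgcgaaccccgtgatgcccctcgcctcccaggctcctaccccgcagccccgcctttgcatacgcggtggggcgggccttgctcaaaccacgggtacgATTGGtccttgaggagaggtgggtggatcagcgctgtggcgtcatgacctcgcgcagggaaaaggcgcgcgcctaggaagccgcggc
Rrm2: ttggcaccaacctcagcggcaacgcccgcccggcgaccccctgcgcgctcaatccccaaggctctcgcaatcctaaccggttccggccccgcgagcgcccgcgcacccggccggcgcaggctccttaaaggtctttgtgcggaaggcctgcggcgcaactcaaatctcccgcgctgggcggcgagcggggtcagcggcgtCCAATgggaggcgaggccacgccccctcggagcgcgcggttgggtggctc
Mcm5: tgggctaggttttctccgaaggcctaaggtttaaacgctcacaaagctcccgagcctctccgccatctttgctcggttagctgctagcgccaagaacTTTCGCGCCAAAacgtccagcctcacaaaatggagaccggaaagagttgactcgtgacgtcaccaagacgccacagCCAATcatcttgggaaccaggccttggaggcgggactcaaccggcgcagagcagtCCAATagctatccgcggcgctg

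The motifs were searched as letters on both strands: TTTGAA for CHR, CCAAT, and TTTCCCGC, TTTGGCGC, TTTCGCGC or TTTGCCGC for E2F. Matches on opposite strands may overlap, as in CCAATTGG of Ube2c and in the joined E2F letters of Mcm5, and each was counted. Promoters from 250 bases before to 50 bases after the start were found for 27 of the 32 genes, with 2 for Mcm7, and none were matched for Gins2, Mcm4, Ccna2, Tpx2 and Aurkb. CHR letters were in 10 of 14 G2/M promoters (71.4%) and in 2 of 14 S phase promoters (14.3%, Mcm2 and Cdc45), against 17.9% of all 32851 promoters of the RefSeq table. CCAAT was in 13 of 14 G2/M promoters (92.9%) and 11 of 14 S phase promoters (78.6%), against 37.4% of all. Both together were in the same 10 G2/M promoters (71.4%), against 6.95% of all. E2F letters were in 5 of 14 S phase promoters (35.7%, Cdc6, Mcm3, Mcm5, Mcm6 and Mcm7) and in 1 of 14 G2/M promoters (7.14%, Cdk1), against 2.26% of all. A match is a description of the sequence, and binding was not measured.

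Detection of a gene means an RPKM of 1 or more in that cell. Cells had between 3458 and 7100 detected genes (median 6164). The relative number of reads behind the RPKM values, recovered from the steps of low values, lay between 0.152 and 3.07 times the median cell, and the absolute number is unknown. Cells were set apart by 3 lineage genes. The 7 cells with a Mal2 RPKM of at least 100 are called Mal2-high. Their Mal2 lay at 1219 or above, against at most 3.41 in the other cells. The rest were split by Six2 and Foxd1 at an RPKM of at least 1, into 15 Six2-only cells, 31 cells with both, 25 Foxd1-only cells and 8 with neither. Markers that did not set these groups were summed as a check of the names. The summed level of 7 ureteric bud markers, Mal2 left out, was 625.2 to 1727 RPKM in Mal2-high cells, against at most 129 RPKM in any other cell. The summed level of 9 nephron progenitor markers, Six2 left out, had a median of 811 RPKM in Six2-only cells and 619.7 RPKM in cells with both, against 51.2 RPKM in Foxd1-only cells. That of 6 stromal markers, Foxd1 left out, had a median of 175 RPKM in Six2-only cells and 223 RPKM in cells with both, against 419 RPKM in Foxd1-only cells, with ranges that overlapped. The 8 cells with neither gene were mixed. In them 5 induced nephron markers (Pax8, Wnt4, Lhx1, Ccnd1 and Jag1) summed to a median of 370.5 RPKM (92.1 to 1521). Medians of the other groups ran from 33.3 to 167 RPKM. In the cells with neither gene 4 mural markers summed to between 0 and 1107 RPKM, and no cell type is named for this group. Of the endothelial, blood and immune marker lists 1 gene each was in the table, and Pecam1, Hbb-b1 and Ptprc were not among its genes. None of these lists summed to more than 64.0 RPKM in a cell.

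Most of the G2/M genes were detected together in a majority of cells and few of them in a minority, whereas at least 8 of the 15 S phase genes were detected in nearly all cells. All 17 G2/M genes were detected in 30 of 86 cells (34.9%, Clopper-Pearson 95% interval 24.9 to 45.9%), at least 14 in 53 cells, and at most 6 in 18 cells. The 15 cells between (17.4%, 10.1 to 27.1%) had from 7 to 13, with 7 cells at 7 to 10 and 8 cells at 11 to 13. At least 9 of the 17 were detected in 64 cells (74.4%, 63.9 to 83.2%), in 72.1% with a limit of 3 RPKM and in 98.8% with any value above 0. Of the 15 S phase genes at least 8 were detected in 83 cells (96.5%, 90.1 to 99.3%), and all 15 in 16 cells (18.6%, 11.0 to 28.4%). Intervals cover counting error only. In 19 cells (22.1%, 13.9 to 32.3%) at least 8 S phase genes were detected but fewer than 9 G2/M genes. The reverse was found in 0 of 86 cells, which allows a share of up to 3.49% by the floor of 3 counts (Clopper-Pearson upper limit 4.199%). Only the 3 cells with fewer than 8 S phase genes could have shown it, and all had fewer than 9 G2/M genes. The contrast of 19 with 0 cells is thus nearly fixed by how widely S phase genes were detected.

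Scores were the mean log2(RPKM + 1) of a list in a cell. The S phase score had a lowest value of 1.49, a median of 5.27 and a highest of 7.40 (mean 5.18, SD 1.18 over 86 cells). The G2/M score had 0.29, 5.02 and 7.61 (mean 4.25, SD 2.19), so it ranged more widely over the cells. Cell 36, a Foxd1-only cell, had the highest S phase score with all 15 S phase and 15 G2/M genes detected. Cell 81, a Six2-only cell, had the highest G2/M score, at 7.61, with an S phase score of 4.66. The largest excess of S phase over G2/M score, 5.33, was in cell 50 (Foxd1-only), which had all 15 S phase genes and 6 G2/M genes. It was followed by cell 20 (Mal2-high) at 4.89 and cell 19 (Foxd1-only) at 4.63. The opposite end was held by Six2-only cells 48, 33 and 81, at -3.06, -3.02 and -2.95. Cells 45, 64 and 41 had the lowest S phase scores, at 1.49, 1.60 and 2.09, together with G2/M scores of 1.41, 0.34 and 0.81. These 3 cells had 3449, 3471 and 4330 other genes detected, among the fewest of all cells.

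**Figure D1:**
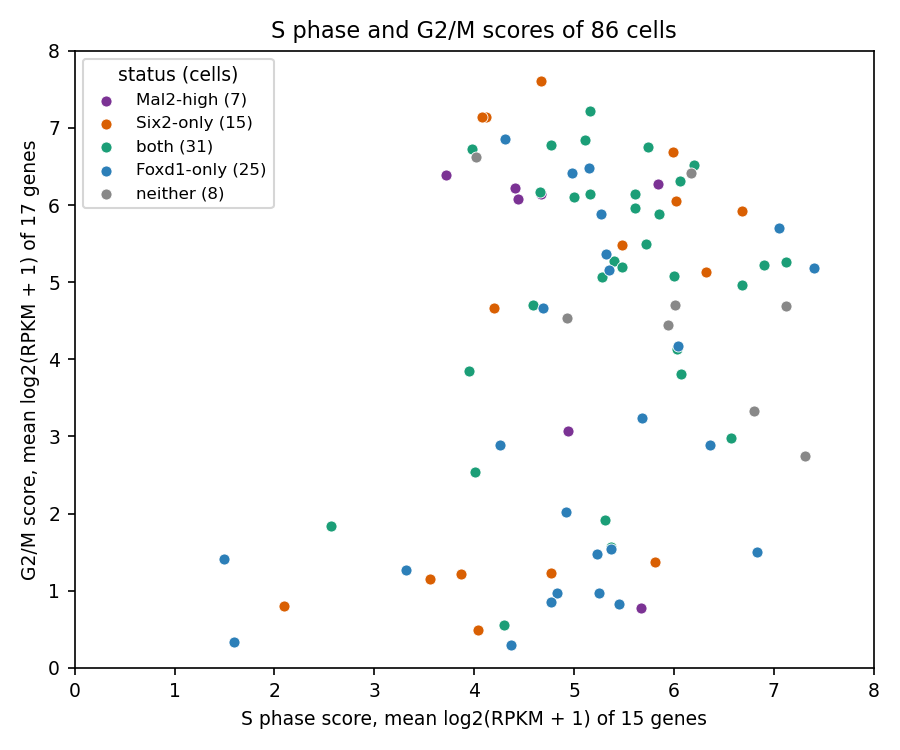
Each point is 1 of 86 cells, with its S phase score on the x axis and its G2/M score on the y axis (mean log2(RPKM + 1) of 15 and 17 genes), coloured by Mal2, Six2 and Foxd1 status. G2/M scores run from 0.29 to 7.61 at S phase scores mostly between 4 and 7, and rho over all cells was 0.12.

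The S phase genes included the helicase subunits Mcm2 to Mcm7, and these were broadly detected. Mcm4 and Mcm6 were each detected in 85 cells, Mcm7 in 83, Mcm3 in 81, Mcm5 in 76 and Mcm2 in 67. Their mean levels lay between 49.1 RPKM for Mcm2 and 141 RPKM for Mcm4. Over their 15 pairs Spearman's rho had a median of 0.26 (range 0.12 to 0.44). Pcna had the highest mean level of the S phase genes, 271 RPKM (SD 194, highest 852). Tyms, the thymidylate synthase, was detected in all 86 cells, from 2.91 to 258 RPKM. Rrm2, the regulated subunit of ribonucleotide reductase, spanned 0 to 706 RPKM with a median of 107, while its partner Rrm1 had a median of 113 and a highest value of 324 RPKM. Slbp, which binds the stem-loop of histone mRNAs, had a mean of 137 RPKM, and Gins2, of the GINS complex, 87.0 RPKM.

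The origin licensing factor Cdc6 and the uracil DNA glycosylase Ung were the sparsest members. Each was detected in 35 cells, 21 of them shared, with a median over all cells of 0.28 RPKM for Cdc6 and 0.41 RPKM for Ung. Cdc6 reached 120 RPKM in cell 36, the cell of the highest S phase score, and Cdc45 reached its highest level, 387 RPKM, in the same cell.

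Of the G2/M genes, Ube2c, the ubiquitin-conjugating enzyme of the anaphase-promoting complex, had the highest mean level of all 32 genes, 283 RPKM, with an SD of 367 and values from 0 to 1509. Ccnb1, cyclin B1, had a mean of 232 RPKM (SD 270, 0 to 1176), and Top2a, the topoisomerase that untangles chromosomes, 165 RPKM (SD 155, 0 to 548). The SD over cells was thus close to or above the mean in each of them. Cdk1 and the survivin gene Birc5 were the G2/M genes detected in most cells, 85 and 83. The kinase gene Plk1 was detected in 48 cells and Cdc20, the activator of the anaphase-promoting complex, in 54. In all 48 cells with Plk1 both Top2a and Cdk1 were detected, while Top2a was detected without Plk1 in 25 cells and Cdk1 without Plk1 in 37. In 12 cells Cdk1 was detected without Top2a, and in none was Top2a detected without Cdk1.

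**Figure D2:**
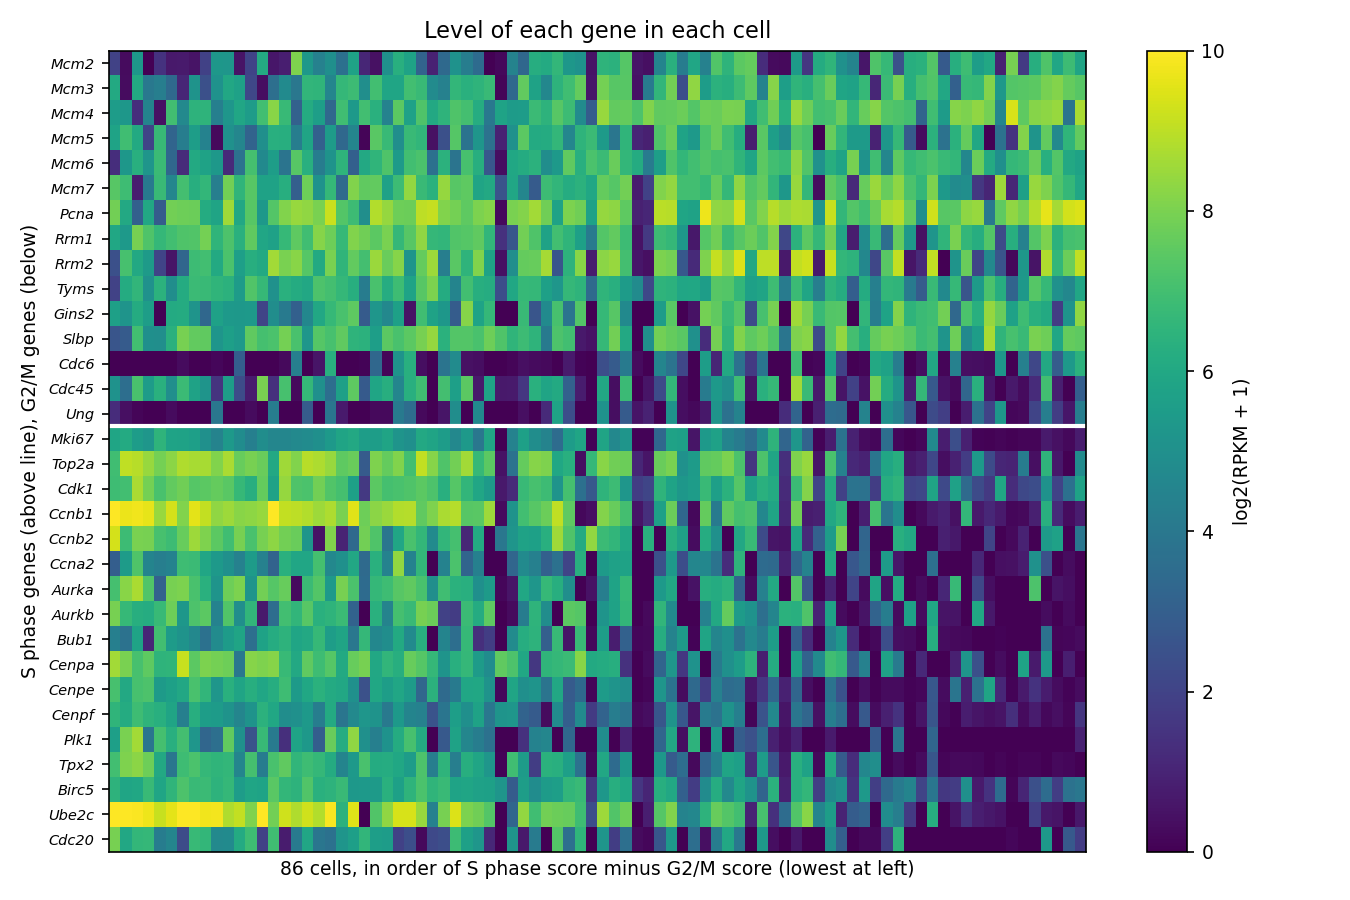
Level of the 32 genes (rows, S phase above the line and G2/M below) in the 86 cells (columns, in order of S phase score minus G2/M score), as log2(RPKM + 1) by colour. The order is made from these same genes, so it brings a fade of the G2/M block towards the right by itself. The fade runs from cells with all 17 genes to cells such as cell 50 with 6, while Tyms, Mcm4 and Pcna continue across.

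Gene pairs within the G2/M list went together far more than pairs within the S phase list. The median rho over 86 cells was 0.62 for the 136 G2/M pairs, 0.26 for the 105 S phase pairs and 0.0047 for the 255 pairs between the lists, against 0.018 for all 76378620 pairs of genes in the table. A rho of at least 0.5 was reached by 116 G2/M pairs, 2 S phase pairs and 2 pairs between the lists, against 0.0131% of all pairs. These are descriptions over cells of 1 pool, in which the values of a cell share its library and depth. With each gene taken as its residual on the number of genes detected, the medians were 0.54, 0.24 and -0.054.

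The closest G2/M pair was Top2a and Cdk1 (rho 0.84), followed by Top2a and Ube2c (0.82), Ccnb1 and Ube2c (0.81), Cdk1 and Ube2c (0.81), and Ccnb1 and the kinesin gene Cenpe (0.80). Their promoters are those printed for Top2a, Cdk1 and Ube2c, which each hold CHR and CCAAT letters, whereas those of Ccnb1 and Cenpe held CCAAT and no CHR letters. The loosest was Ccnb2, cyclin B2, with Aurkb, a kinase of the chromosomal passenger complex (0.26), and the promoter of Ccnb2 held both CHR and CCAAT letters. Against the mean of the other 16 genes, Ube2c had a rho of 0.91, Ccnb1 of 0.87, and Top2a and Cenpe of 0.83, and the lowest was Ccnb2 at 0.61. None of the 136 pairs had a rho under 0.

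Among S phase genes the closest pair was Pcna and Rrm2 (0.62), followed by Mcm5 and Rrm2 (0.55), Rrm1 and Tyms (0.50), Pcna and Cdc6 (0.50), and Rrm2 and Tyms (0.47). Rrm1 and Ung were lowest (-0.07). Pcna had a rho of 0.65 with the mean of the other 14 S phase genes, Rrm2 of 0.64 and Cdc6 of 0.59, down to 0.27 for Mcm6.

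The near-zero median between the lists hid pairs of both signs. Cdc45, which joins the Mcm helicase when origins fire, went with the G2/M list (rho 0.49 with the G2/M score), as did Rrm1 (0.41) and Tyms (0.39). The highest pairs between the lists were Cdc45 with the kinase gene Aurka (0.53), Cdc45 with Top2a (0.52), Tyms with Top2a (0.47), Tyms with Cdk1 (0.46), and Cdc45 with Ccna2, cyclin A2 (0.46). The helicase subunits Mcm4 (-0.36), Mcm3 (-0.27), Mcm6 (-0.25) and Mcm2 (-0.19) went against the G2/M score, while Mcm5 (0.12) and Mcm7 (0.14) did not. The lowest pairs were Mcm4 with Cenpa, the histone H3 variant of centromeres (-0.43), Mcm4 with Ube2c (-0.38), Mcm6 with Cenpa (-0.38), Cdc6 with Cenpa (-0.36), and Mcm4 with the spindle factor gene Tpx2 (-0.36). With residuals on genes detected Cdc45 was at 0.44, Rrm1 at 0.25, Tyms at 0.28, Mcm4 at -0.37, Mcm3 at -0.42, Mcm6 at -0.23 and Mcm2 at -0.33.

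**Figure D3:**
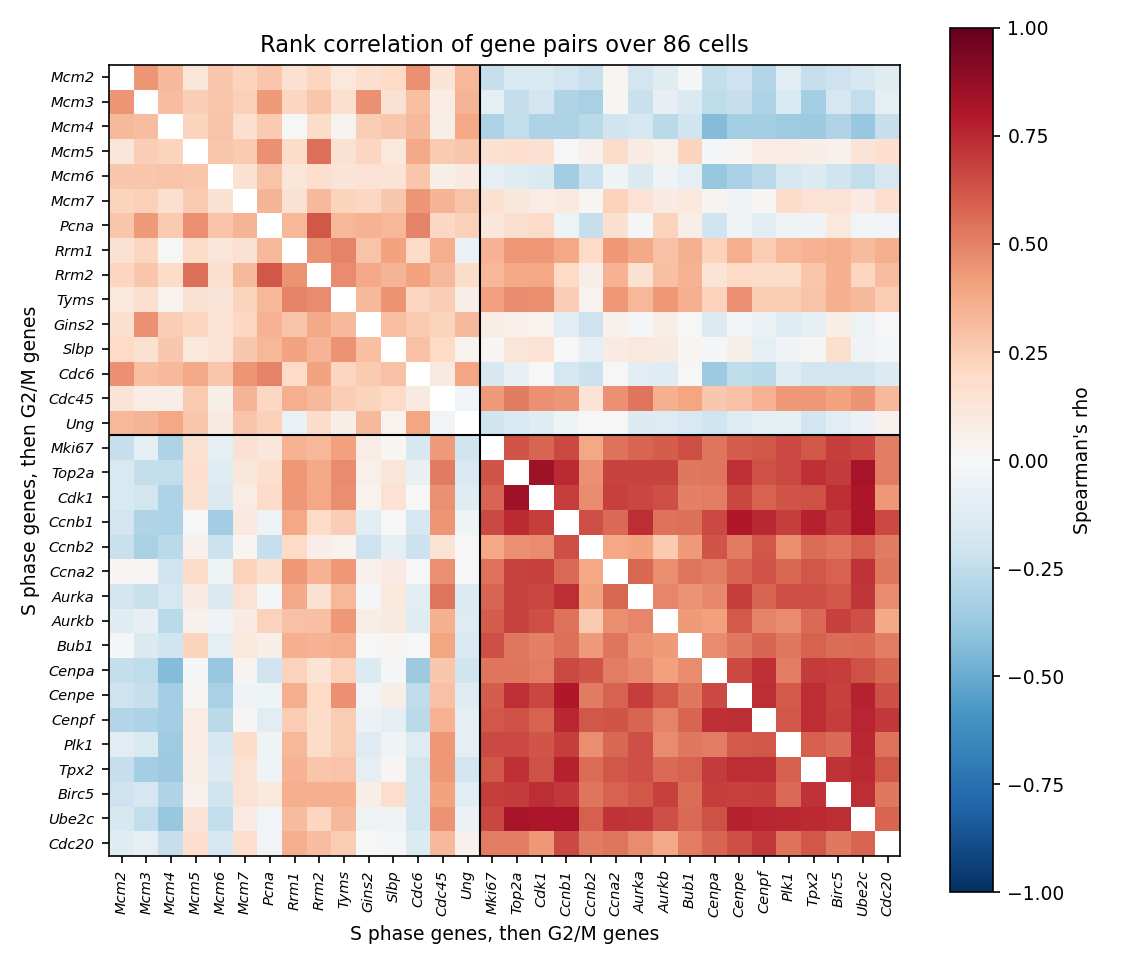
Spearman's rho over 86 cells for each pair of the 32 genes, S phase genes first and G2/M genes after, with lines between the lists (red positive, blue negative, diagonal blank). The G2/M block is red throughout (0.26 to 0.84), the S phase block is paler, and between the lists Cdc45, Rrm1 and Tyms are red while Mcm4, Mcm3 and Mcm6 are mostly blue.

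The relation of the scores to each other differed along the number of genes detected. Over all 86 cells rho was 0.12 between the S phase and G2/M scores, and -0.077 in residuals on genes detected. It was 0.36 in the 29 cells with the fewest other genes (3449 to 5873), -0.031 in the middle 28 (5898 to 6478) and -0.58 in the 29 with the most (6503 to 7068). Among the cells at or above the median of genes detected it was -0.18. Neither split of the cells was planned. Over all cells, those with more genes detected had higher scores, but among the cells at or above the median of genes detected the S phase score had a rho of -0.033 with that number and the G2/M score 0.57. The rho with the number of other genes detected was 0.36 for the S phase score and 0.51 for the G2/M score, and that with relative read depth was -0.046 and -0.14. The number of other genes detected itself had a rho of -0.26 with relative read depth. The mean G2/M score was 2.97 (SD 2.44) in the cells with the fewest genes, 3.95 (SD 1.90) in the middle and 5.83 (SD 0.90) in those with the most, where 21 of 29 cells had all 17 G2/M genes, against 4 of 29 and 5 of 28. The mean S phase score was 4.59 (SD 1.4), 5.28 (SD 0.95) and 5.67 (SD 0.91). Whether the gene number sets the scores or moves with the cell cycle was not tested.

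**Figure D4:**
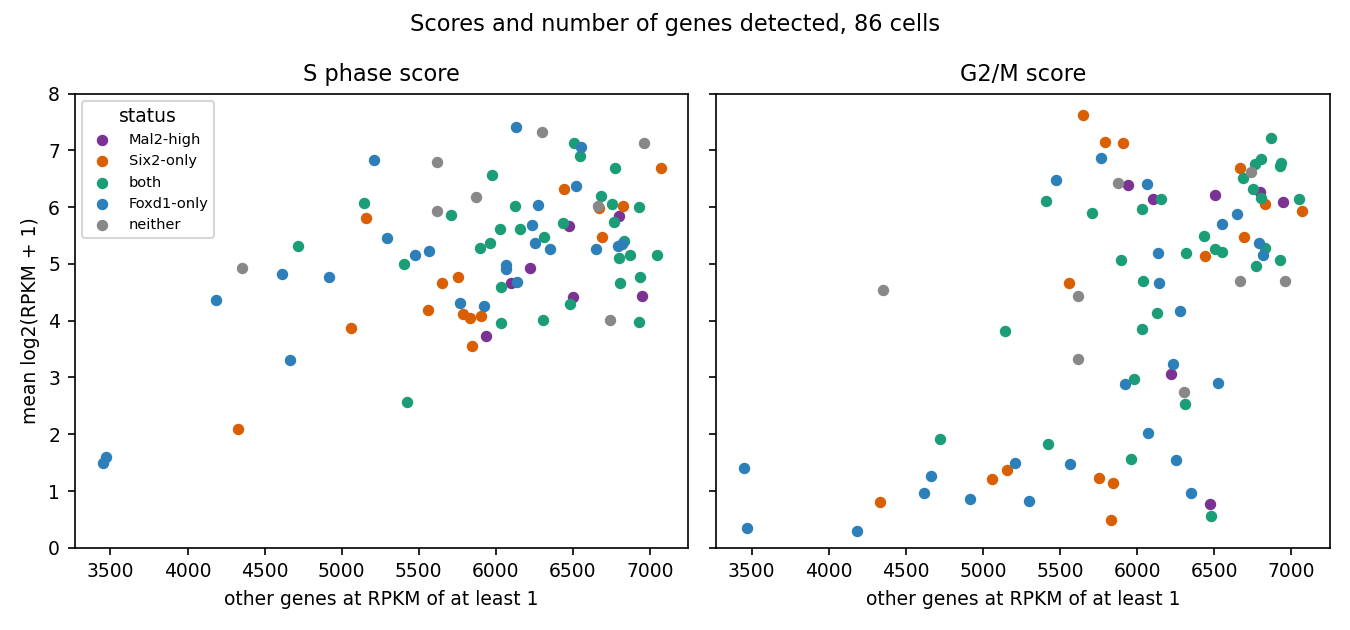
S phase score (left) and G2/M score (right) of each of 86 cells, as mean log2(RPKM + 1), against the number of other genes at an RPKM of at least 1, coloured by status. Among the 29 cells with at least 6503 genes G2/M scores average 5.83 (SD 0.90), and below that number they spread from 0.29 to 7.61.

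G2/M scores were lowest, on average, in Foxd1-only cells. S phase scores were highest, on average, in the 8 cells with neither Six2 nor Foxd1, which were mixed in markers. The G2/M score averaged 4.99 (SD 2.20) in 7 Mal2-high cells, 4.14 (SD 2.73) in 15 Six2-only cells, 4.94 (SD 1.77) in 31 cells with both, 4.69 (SD 1.33) in 8 cells with neither and 3.13 (SD 2.22) in 25 Foxd1-only cells. At least 9 of 17 G2/M genes were detected in 6 of 7 Mal2-high, 10 of 15 Six2-only, 27 of 31 both, 8 of 8 neither and 13 of 25 Foxd1-only cells. The S phase score averaged 4.81 (SD 0.74), 4.78 (SD 1.25), 5.36 (SD 0.97), 6.04 (SD 1.12) and 5.01 (SD 1.38) in the same order. The ranges overlapped in every pair of groups, and each difference given below is smaller than the SD over cells within at least 1 of its groups. The groups also differed in genes detected, with means of 6426, 5905, 6301, 6016 and 5655 in that order, and its part in the differences was not tested beyond the values given for residuals.

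The G2/M score of Six2-only cells exceeded that of Foxd1-only cells by 1.01, and the difference was 0.60 in residuals on genes detected. Among the cells at or above the median of genes detected, 5 Six2-only and 10 Foxd1-only cells, it was 1.90. Six2-only cells were split, with 6 cells between 0.48 and 1.38 and 9 cells between 4.66 and 7.61. Of the 17 G2/M genes 16 had a higher mean RPKM in Six2-only cells, as had 6010 of all 12360 genes. Past a log2 ratio of 1 lay 8 of the 17, against 12.5% of all genes higher by that much. The 17 genes had a median log2 ratio of means of 0.84, against -0.02 for all genes. Plk1 had 17.9 (0 to 390) RPKM, as median and range, in Six2-only cells, against 0.29 (0 to 130) in Foxd1-only cells, and a log2 ratio of 2.28. Cdc20 had 12.2 (0 to 249) RPKM in Six2-only cells, against 0.58 (0 to 120) in Foxd1-only cells, with a ratio of 2.01. Ube2c had 220 (0 to 1509) RPKM in Six2-only cells, against 10.5 (0 to 1148) in Foxd1-only cells, with a ratio of 1.71. In each of them cells at or near 0 occurred in both groups, and the highest cell was Six2-only. Birc5 was the exception in direction, at -0.098. By the difference of mean log2 values all 17 were higher (6658 of all 12360 genes), 8 of them past 1 (8.75% of all genes). By mean RPKM 5 of the 15 S phase genes were higher and 10 lower, against 6310 of all 12360 genes lower. None lay past 1 in either direction (16.4% of all genes were lower by that much). The difference in S phase score was -0.23. It was 0.067 genes when the score was the number of genes detected and 0.46 among the cells at or above the median of genes detected. By mean log2 values Mcm4 was the 1 S phase gene lower past 1 (-1.05), against 6.01% of all genes.

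Cells with both Six2 and Foxd1 exceeded Foxd1-only cells by 1.80 in the G2/M score, and by 0.76 in residuals on genes detected. Among the cells at or above the median of genes detected, 19 cells with both and 10 Foxd1-only cells, the difference was 1.58. No doublet caller was run, and cells with both genes had more genes detected than either single group. All 17 G2/M genes were higher in cells with both, as were 6466 of all 12360 genes. Of the 17, 8 lay past a log2 ratio of 1 (9.83% of all genes), and their median was 0.99 over all 17, against 0.034 for all genes. By the difference of mean log2 values all 17 lay past 1, against 8.16% of all genes, and 7804 of all 12360 genes were higher. Ccnb1 had a median of 206 (0.17 to 789) RPKM in cells with both, against 9.01 (0.14 to 1176) in Foxd1-only cells. Top2a had 211 (0.31 to 489) RPKM in cells with both, against 32.1 (0.40 to 448) in Foxd1-only cells. Tpx2 had 53.1 (0.097 to 220) RPKM in cells with both, against 2.49 (0 to 188) in Foxd1-only cells. The medians were apart although the ranges overlapped almost wholly. Both comparisons share the Foxd1-only cells. The S phase score differed by 0.35 (-0.14 in residuals on genes detected). Of 15 S phase genes 8 were higher and 7 lower (5877 of all 12360 genes were lower). None lay past 1 (9.72% of all genes were lower by that much). By mean log2 values 4 were higher past 1 and none lower past 1 (2.34% of all genes). Mcm4 ran the other way from the G2/M genes in both comparisons, with a median of 125 RPKM in Six2-only cells and 87.9 RPKM in cells with both, against 183 RPKM in Foxd1-only cells.

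Mal2-high cells stood 0.80 above all other cells in the G2/M score, but 0.11 in residuals on genes detected. Among the cells at or above the median of genes detected they stood 0.59 below the others (-0.59). That subset holds 5 Mal2-high cells, with cells 20 and 53, the lowest in score, among them. The 7 Mal2-high scores were 0.78, 3.06, 6.08, 6.15, 6.22, 6.27 and 6.39, so 5 cells sat close together and cell 20 far below. Of the 17 G2/M genes 12 had a higher mean RPKM and 5 a lower one (5031 of all 12360 genes were higher). None lay past a log2 ratio of 1 (9.62% of all genes were higher by that much). By mean log2 values all 17 were higher (6399 of all 12360 genes) and 5 past 1 (12.3% of all genes). The S phase score was lower by 0.40 (difference -0.40). Of the 15 S phase genes 12 were lower, as were 7329 of all 12360 genes. Past 1 lay 3, Gins2 (-1.88), Mcm4 (-1.52) and Ung (-1.32), no larger a share than the 21.9% of all genes. By mean log2 values Mcm4 (-1.81) and Gins2 (-1.65) lay past 1, against 6.22% of all genes. Mcm4 had 60.2 (0.38 to 125) RPKM in Mal2-high cells, against 125 (1.49 to 666) in the other 79 cells. Gins2 had 34.4 (0 to 52.2) RPKM in Mal2-high cells, against 66.1 (0 to 382) in the other cells. In both genes the Mal2-high cells lay in the lower part of the range of the other cells.

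**Figure D5:**
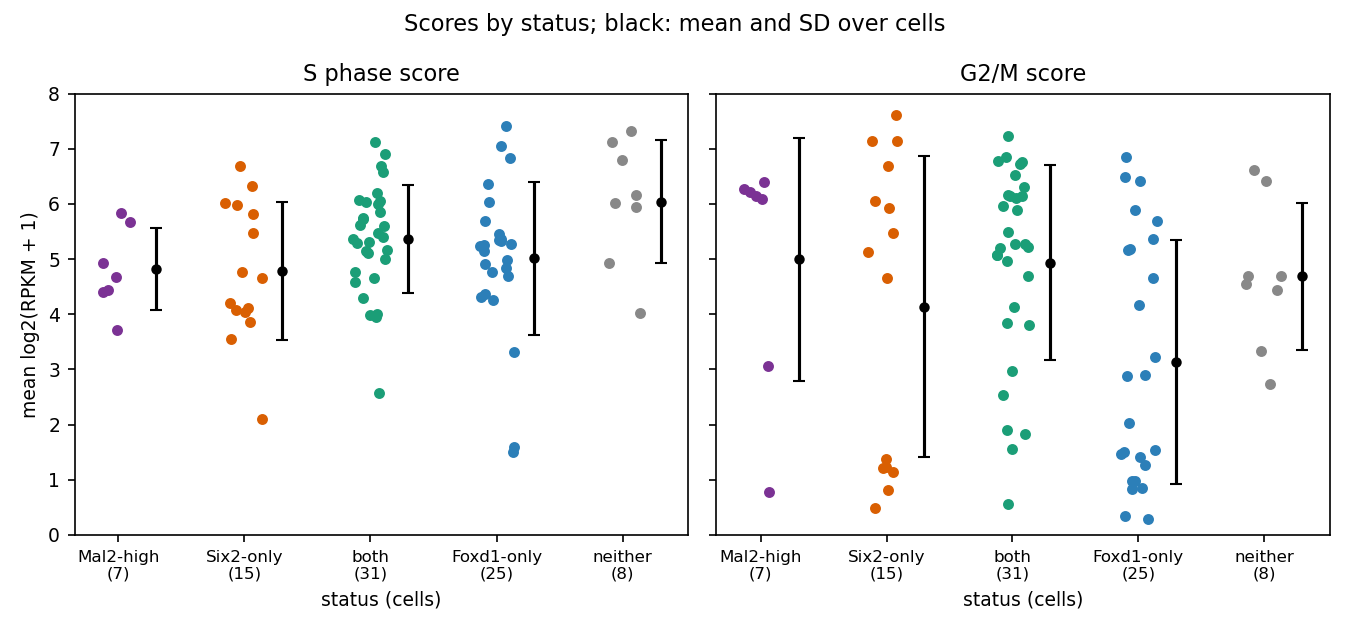
S phase score (left) and G2/M score (right), mean log2(RPKM + 1), of each cell by status, with the number of cells in brackets. Black points and bars are the mean and SD over cells. G2/M means run from 3.13 in Foxd1-only cells to 4.99 in Mal2-high cells with overlapping ranges, and Six2-only cells leave a gap between 1.38 and 4.66.

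Within the 46 Six2 cells that are not Mal2-high, those with Cited1, a gene of uninduced nephron progenitors, had nearly the same G2/M score as those without. It averaged 4.73 (SD 1.91) in 29 cells with Cited1 and 4.59 (SD 2.53) in 17 without. The S phase score averaged 5.33 (SD 1.00) with Cited1 and 4.90 (SD 1.21) without. The authors' deposited table of 450 genes holds 35 cells, not the 46 above, and Mal2-high cells 47 and 57 are among them. Mcm6 was the only one of the 32 genes in it. The authors' fold was -2.30 for cells they call six2only over six2andcited1, so Mcm6 was lower in six2only.

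Other genes of the same phases followed the scores. Of 37 further G2/M genes in the table, all had a rho of at least 0.3 with the G2/M score (5.85% of other genes) and 36 of at least 0.5, against 1.41% of the 8884 other genes detected in at least 20 cells, and their median was 0.71. Nusap1, a microtubule binding protein of the spindle, was at 0.88, the chromatin protein gene Hmgb2 at 0.87 and Cks2, a partner of Cdk1, at 0.87. The lowest were the phosphatase gene Cdc25b (0.30), Hjurp (0.50), which deposits Cenpa, and Nek2 (0.51), a centrosome kinase. Of 32 further S phase genes 24 had a rho of at least 0.3 with the S phase score (3.52% of all) and 7 of at least 0.5 (0.169% of all), with a median of 0.43. Nasp, a histone chaperone, was at 0.60 and Clspn, a checkpoint adaptor at forks, at 0.58. The lowest was Orc1 of the origin recognition complex, at 0.025.

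Regulators of G1 and of the entry into S phase were mixed. In the table were 22 of them, and 18 were detected in at least 20 cells, with a median rho of 0.20 with the S phase score. Ccne2, cyclin E2, had 0.60 with the S phase score and -0.14 with the G2/M score, and Ccne1 had 0.41 and -0.11. Ccnd2, cyclin D2, was detected in all 86 cells and had -0.47 with the G2/M score, the lowest of its list. Its mean was 122 RPKM in Six2-only cells and 118 RPKM in cells with both, against 244 RPKM in Foxd1-only cells. Cdkn1c, the inhibitor p57, was also detected in all 86 cells, from 16.1 to 1668 RPKM, and had -0.39 with the G2/M score. These were the only genes of the further lists at -0.3 or below with the G2/M score (0.574% of other genes), and none was so with the S phase score (0.135%). The mean of Cdkn1c was 330 (SD 221) RPKM in Six2-only cells and 475 (SD 302) RPKM in cells with both, against 639 (SD 263) RPKM in Foxd1-only cells. Foxm1, an activator of G2/M genes, was detected in 47 cells and had 0.63 with the G2/M score. Its mean ran the other way by status. It was 5.99 (SD 10.4) RPKM in Six2-only cells and 11.0 (SD 16.5) RPKM in cells with both, against 18.5 (SD 34.4) RPKM in Foxd1-only cells. Its median was 3.35 RPKM in cells with both. The medians of Six2-only cells (0.70 RPKM, detected in 7 of 15) and Foxd1-only cells (0.15 RPKM, 9 of 25) lay under the detection limit. Mybl2, which acts with it, was detected in 28 cells and had 0.18 with the G2/M and 0.45 with the S phase score. Of the DNA damage response list Chek2 had 0.43 with the G2/M score and Chek1 0.37 with the S phase score.

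Among genes outside the members and all of these further lists, those most like the G2/M score were Kif22 (rho 0.83), a chromosome-arm kinesin, Arl6ip1 (0.80), the importin gene Kpna2 (0.78), Fam64a (0.78) and Ckap2l (0.78), followed by D2Ertd750e, Spc25, Spc24, Cks1b and Arhgap19 (0.75 to 0.72). Most like the S phase score were Atad2 (0.56), Ranbp1 (0.55), Ncapg2 (0.55), Zfp367 (0.54) and Wdr76 (0.52), followed by Hist1h1b, Bard1, Xrcc3, Hat1 and Hist1h2ap (0.52 to 0.48). The farthest from the G2/M score among these genes outside the lists, Ccnd2 and the other listed genes thus left out, were the ferritin light chain genes Ftl2 (-0.43) and Ftl1 (-0.42), whose near-identical sequences may share reads, with Kctd12 (-0.43), Pdcd4 (-0.42) and Atp5e (-0.42). The farthest from the S phase score were Nsd1 (-0.37), Trim13 (-0.34), S100a11 (-0.33), Kdm6b (-0.32) and Usp22 (-0.32).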

How the data were processed

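RNA of 86 single cells was read as RPKM, which the authors computed and deposited for 12360 genes. Per the file headers, a gene needed more than 3 RPKM in 3 or more cells to be listed, and a recount gave the same number of cells for 12360 genes. A second deposited table holds 450 genes in 35 cells, with the authors' signed fold change, used as a score. The submitters' processing notes name TopHat 1.4.1, DESeq and mm9 without saying what each did. Absolute depth is unknown. Relative depth was solved from the commonest ratios of low values between cells, and 99.9% of 3655 cell pairs lay within 0.005 (natural log) of it.

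Scores are means of log2(RPKM + 1) and ratios are log2 of (mean RPKM + 1) over (mean RPKM + 1), which understate low genes. Correlations are Spearman's. Shares have exact Clopper-Pearson 95% intervals. Likeness was ranked among genes detected in at least 20 cells, with the 10 highest and 5 lowest named. Named pairs are the 5 highest of each kind, the 5 lowest between the lists and the lowest within each. Of each further list the highest and lowest members were named, except 1 gene that is not reported here. The members and lists were chosen with earlier results of these data known. Calculations in Python 3.11.15 with numpy 2.4.6, pandas 2.3.3, scipy 1.17.1 and matplotlib 3.10.9 were tested on simulated data. Alternatives were other pseudocounts, detection limits, scores, correlations, status limits and subsets of cells.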

Additional observations from a re-analysis of the deposited data

Results flagged for a closer look

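In Mal2-high and neither cells, the groups of 4 to 10 cells, the 32 genes, both scores and their difference were looked at for 1 cell far from the others, and 11 of 70 were found. Chance flags about 1 in 20 groups, but these 70 share cells, and several of the 11 come from the same cell, so the number cannot be read against that share. The values are log2(RPKM + 1). Among 7 Mal2-high cells, cell 20 was far below the others in Ccnb1 (0.33), Ccnb2 (0) and Bub1 (0.17), and it is the cell with 3 G2/M genes detected. Ung was detected in cell 3 alone of that group, at 3.95. Among 8 cells with neither gene, cell 71 was lowest in Mcm5 (3.22), Mcm6 (3.36) and Rrm2 (0.55), and it had the highest G2/M score of its group, 6.62. Cell 29, a cell of few genes, was lowest in Mcm4 (4.83) and Top2a (0.38). Ccnb2 was lowest in cell 30 (0) and Bub1 in cell 32 (0.36).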

How the results depend on the processing

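The median rho within the G2/M pairs (0.52 to 0.64) and within the S phase pairs (0.23 to 0.26), and the rho of the G2/M score with genes detected (0.42 to 0.59), kept their sign and moved little under the alternatives run for them. Other results moved with the pseudocount, the score, the correlation, the limits or the cells counted, as given next. Of 135 alternative values of the main results 100 stayed, 22 moved and 13 changed sign. Of 1024 alternative values of single genes 836 stayed and 188 moved. Some that stayed could not move. The Mal2-high differences and ratios do not depend on the detection limit, and a limit of 20 cells left out no member. For scores as gene numbers or with members scaled to SD 1, only the sign of a group difference was compared. Among those 1024, 65 log2 ratios had the other sign, with main ratios of at most 0.82 in size, and 0 of the 392 whose main value was at least 1 (log2 ratio) or 0.3 (rho) did.

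The rho between the S phase and G2/M scores was 0.0086 without the 5 cells of few genes, -0.077 in residuals on genes detected, 0.27 with the number of genes detected per list as the score and 0.27 as Pearson's r. The rho of the S phase score with genes detected was 0.51 as Pearson's r. The median pair rho between the lists was -0.059 without the cells of few genes, -0.054 in residuals on genes detected and 0.10 as Pearson's r, and, chosen after seeing the data, -0.0013 without the 8 cells under a relative depth of 0.5. With detection at any value above 0, 98.8% of cells had at least 9 G2/M genes and 100% at least 8 S phase genes.

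For Six2-only minus Foxd1-only cells, the G2/M difference was 0.65 with a pseudocount of 10, 0.60 in residuals on genes detected and 0.63 with Six2 and Foxd1 called at any value above 0; the S phase difference was 0.067 genes with the number detected as the score and 0.016 with Six2 and Foxd1 set at an RPKM of 5 and Mal2 at 1. For both minus Foxd1-only cells, the G2/M difference was 2.39 with a pseudocount of 0.1, 1.01 with 10, 1.47 without the cells of few genes and 0.76 in residuals; the S phase difference was 0.0070 without the cells of few genes, -0.14 in residuals and 0.056 with the other status limits. For Mal2-high minus other cells, the G2/M difference was 0.47 with a pseudocount of 10 and 0.11 in residuals, and the S phase difference was -0.73 in residuals.

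In the cells at or above the median of genes detected, a subset chosen after seeing the data, the rho between the scores was -0.18, that of the S phase score with genes detected -0.033 and the median between the lists -0.14. In them 90.7% had at least 9 G2/M genes and 100% at least 8 S phase genes. Six2-only minus Foxd1-only cells was 1.90 for G2/M and 0.46 for S phase, and both minus Foxd1-only cells -0.16 for S phase. Mal2-high minus other cells, with 5 Mal2-high cells in the subset, was -0.59 for G2/M. The cause of these changes was not tested. The cells are 1 sample of unknown absolute depth, so a gene under the limit may be missed, and no alternative leaves out a replicate. No paired analysis was possible because the cells come from 1 pool and carry no replicate that links groups.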
